A study of Mus musculus with 27 samples.

Results

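Collagens are the main structural proteins of connective tissue, and the gene set described here joins them with genes that mark the fibroblasts making that tissue. The set held every collagen alpha-chain gene found by its mouse symbol, 42 in all, and 18 further named genes: the proteoglycans Dcn, Lum and Bgn, the elastic fibre genes Eln, Fbn1, Fbln1, Fbln2, Fbln5, Lox and Loxl1, the secreted matrix proteins Sparc, Postn and Mgp, and the mesenchymal cell genes Pdgfra, Pdgfrb, Acta2, Inmt and Tcf21. All 60 were found among the 16024 genes measured. The rule uses gene symbols, not measured values. Of the 60, 45 averaged at least 1 FPKM (a level of fragments scaled for transcript length and for the library's mapped fragments) in at least 1 group, and 15 did not.

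The study measured mRNA by RNA-seq in 27 libraries from lungs of C57BL/6 mice, asking how cells of a tumour-bearing lung differ from their counterparts in a lung without tumour. The tumour lungs came from mice given HKP1 lung cancer cells, a cultured line, through the tail vein and were taken on day 20 to 25. WT lungs had no tumour. Lungs were perfused and dissociated, and every group went through this same preparation. Total lung cells were not sorted for a marker (tumour replicates 12 to 14, WT replicates 11 to 13). Epithelial cells were Epcam+CD11b-CD11c- (tumour replicates 9 to 11, WT replicates 8 to 10), and the series' title calls those of the tumour lungs tumour cells. Monocytes were CD11b+Ly6C+ (tumour replicates 4 and 5, WT replicates 3 and 4), and neutrophils were CD11b+Ly6G+ (tumour replicates 6 to 8, WT replicates 5 to 7). Macrophages were CD11c+CD11b+ in tumour lungs (replicates 1 to 3) but CD11c+CD11b- in WT lungs (replicates 1 and 2), so there the tumour and the sorted population cannot be told apart. No fibroblast fraction was sorted. Whether libraries of a group are from different animals is not in the labels. A p-value here therefore covers only the spread among these libraries, which may be technical.

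Collagen chains wind into a triple helix, and the chain combination sets the kind of structure built. Fibrillar collagens form the load-bearing fibres of the interstitium, collagen IV forms the sheet of the basement membrane under epithelium and endothelium, and collagen VI forms beaded filaments that link cells to fibres. Small leucine-rich proteoglycans coat fibrils and control their width, and elastin laid on fibrillin and fibulin scaffolds gives the lung its recoil. In lung most interstitial matrix is made by fibroblasts marked by Pdgfra, Tcf21 and Inmt, while smooth muscle cells and pericytes express Acta2 and Pdgfrb.

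Promoter sequence is shown for 4 members described below. Col3a1 is a fibrillar chain that passed narrowly as lower in tumour total lung, where most fibrillar chains did not pass. Fbln1 and Postn had tumour differences that were unlike in total lung and epithelial cells, and Col15a1 rose in neutrophils. Inmt and Dcn, which fell most in total lung, are not among the 4. Each is the 150 bases before a RefSeq start on GRCm38.p6, 5′ to 3′ on the plus strand, with TATAAA in capitals. Windows inside an annotated exon were not shown, and for Postn the shown start is one of several.
Col3a1, chr1:45311388-45311537: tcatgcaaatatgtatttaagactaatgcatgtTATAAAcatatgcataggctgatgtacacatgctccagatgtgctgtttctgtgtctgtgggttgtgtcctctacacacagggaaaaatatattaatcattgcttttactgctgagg
Fbln1, chr15:85205799-85205948: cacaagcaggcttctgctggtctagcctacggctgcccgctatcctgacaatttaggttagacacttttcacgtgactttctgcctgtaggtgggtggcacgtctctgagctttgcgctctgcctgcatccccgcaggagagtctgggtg
Postn, chr3:54360957-54361106: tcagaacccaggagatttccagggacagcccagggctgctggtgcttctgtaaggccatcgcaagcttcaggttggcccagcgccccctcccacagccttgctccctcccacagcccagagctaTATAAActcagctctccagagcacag
Col15a1, chr4:47207862-47208011: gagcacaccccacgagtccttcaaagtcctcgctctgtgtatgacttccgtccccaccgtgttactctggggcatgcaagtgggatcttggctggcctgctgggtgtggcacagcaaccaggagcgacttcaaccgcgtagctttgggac
TATAAA or its reverse complement TTTATA was found in the Postn window 26 bases before the start and in the Col3a1 window 117 bases before it, and in neither of the others. Over all 32851 RefSeq promoters of this length 7.57% held it, and of the 51 promoters of 45 members 11.8% did. CCAAT or its reverse complement ATTGG was in none of these 4 windows, in 24.5% of all promoters and in 17.6% of the members' promoters. A match is a description of the letters only.

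Several members are neighbours in the genome (GRCm38, GENCODE M21 models). Col4a1 and Col4a2 lie head to head on chromosome 8 with starts 21 bases apart and share 22 exonic bases. Col4a3 and Col4a4 start 72 bases apart on chromosome 1 and Col4a5 and Col4a6 start 1309 bases apart on chromosome X, both pairs on opposite strands. Col6a1 (76708792 to 76726168) and Col6a2 (76595762 to 76623630) lie on the minus strand of chromosome 10, which also carries Dcn (97479609 to 97518143) and Lum (97565128 to 97572703). Inmt (55170626 to 55175043) and Fbln2 (91212455 to 91272540) are on chromosome 6. Fbn1 shares 20.1% of its exonic bases with Gm9913 on the other strand, and the labels name no strand setting, so reads from that stretch of Fbn1 could come from either gene.

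The depth in reads is not recorded in FPKM. Steps between the lowest values give rough relative depths of 0.832 to 1.58, with tumour macrophage replicate 1 set to 1. Tumour libraries were above WT ones in epithelial cells (1.25 to 1.58 against 0.832 to 0.963) and in neutrophils (1.1 to 1.23 against 0.856 to 0.962). In macrophages tumour libraries were below WT ones (0.981 to 1.08 against 1.21 and 1.26). The part of depth in the tumour differences was not tested. Libraries of 1 group correlated across genes with Pearson's r of 0.964 to 0.996. Sorted fractions were checked on their own markers. Ptprc (the pan-leukocyte antigen CD45) was at 131.5 to 460.0 FPKM in the sorted myeloid libraries and at 13.8 to 37.6 in the epithelial ones, and Epcam was at 77.4 to 96.0 in the epithelial ones. Epcam was also at 47.7 and 43.0 in WT macrophages, where the epithelial keratin gene Krt19 was at 363 and 402, against at most 5.95 and 10.8 in tumour macrophages. The neutrophil gene S100a9 was listed at 0 in all WT neutrophil libraries and at 13139 to 17220 in tumour ones. Sftpc, which encodes surfactant protein C, was listed at 0 in all epithelial and WT total lung libraries and at 440.5 to 1764 in the WT neutrophil ones, so a listed 0 is not read as absence here. WT epithelial replicate 10 stood apart in smooth muscle genes: Acta2 was at 132.5 FPKM there against 8.85 and 5.70 in replicates 8 and 9, and Myh11, smooth muscle myosin, at 23.3 against 0.965 and 1.29.

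Matrix genes were most abundant in unsorted WT lung, with 5 of the 6 collagen IV chains and some others highest in sorted epithelium. Of the 45 members that reached 1 FPKM, 27 had their highest group mean in WT total lung, 8 in WT epithelial cells, 6 in tumour epithelial cells and 2 in tumour total lung (Eln and Postn). The median over all 60 members was 7.69 FPKM in WT total lung, 2.68 in WT epithelial cells, 1.73 in WT monocytes, 1.11 in WT neutrophils and 0.300 in WT macrophages. In the tumour groups it was 2.60 in total lung, 2.30 in epithelial cells, 1.41 in monocytes, 0.373 in neutrophils and 0.237 in macrophages. Mgp, an inhibitor of calcification, led all 10 groups, from 32.8 ± 13.6 FPKM in tumour macrophages (SD, n = 3) to 2093 ± 781 in WT total lung (SD, n = 3). After Mgp the highest in WT total lung were Inmt (531 FPKM), Dcn (302), Bgn (289) and Sparc (228), and in WT epithelial cells Sparc (251), Inmt (147), Col6a1 (93.7) and Col4a1 (80.9). In tumour total lung they were Sparc (106), Bgn (95.1), Eln (61.3) and Col3a1 (53.8), and in tumour epithelial cells Sparc (171), Col6a1 (129), Bgn (98.4) and Col4a1 (73.3). A pair of genes peaked in myeloid cells: Col20a1 in WT macrophages (3.95 and 6.00 FPKM) and Col11a2 in WT neutrophils (12.5, 10.97 and 8.12 FPKM).

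**Figure D1:**
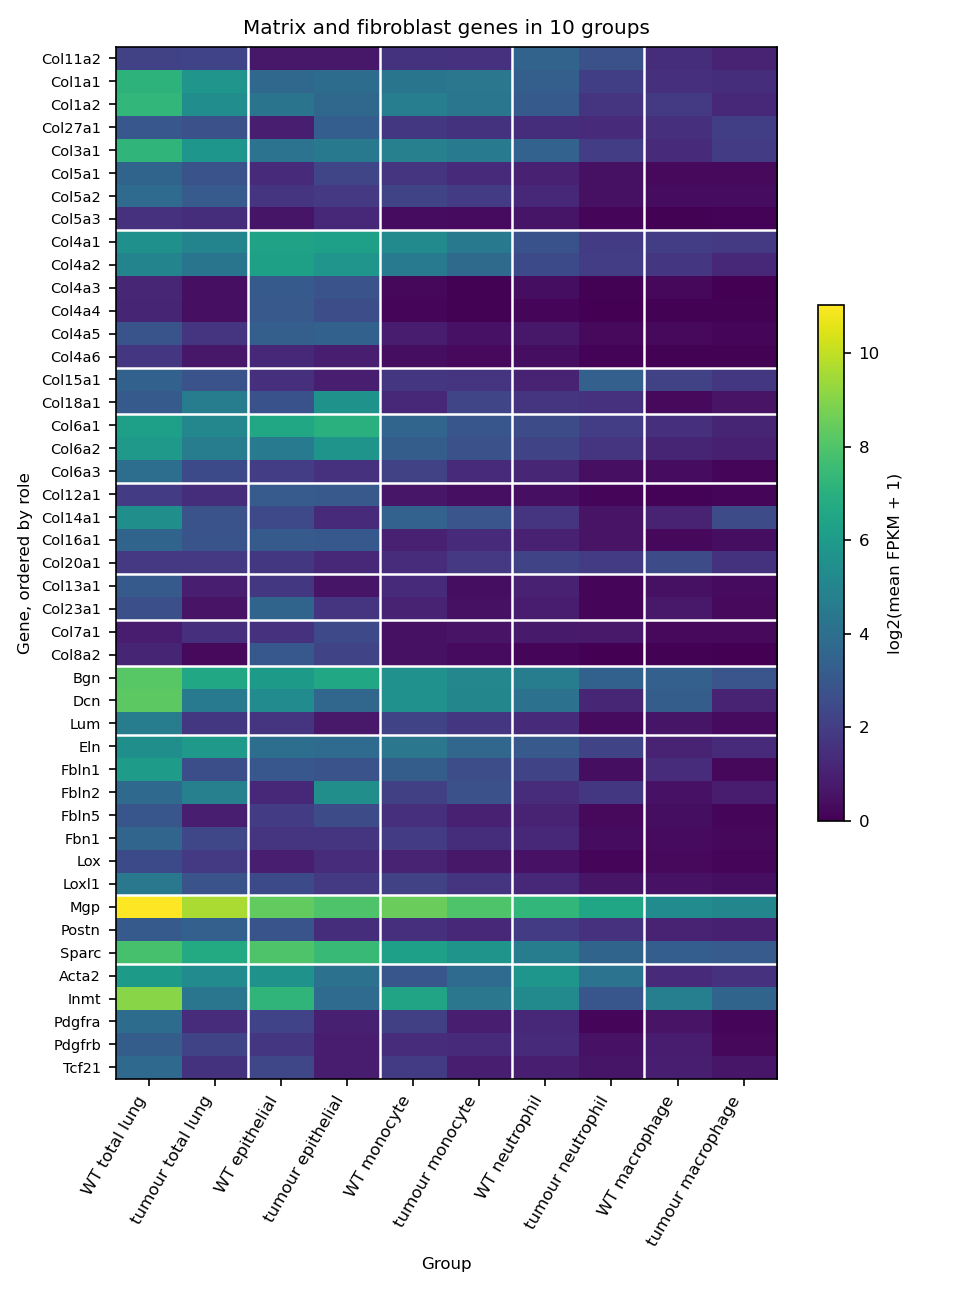
Mean level of the 45 members that reached 1 FPKM (rows, ordered by role with white lines between roles) in the 10 groups (columns); colour is log2(mean FPKM + 1). The WT total lung column is brightest for 27 of them, while 5 of the 6 collagen IV rows, all but Col4a6, are brightest in an epithelial column.

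WT total lung was compared with each WT sorted fraction in a limma fit of all 10 groups on log2(FPKM + 1), with Benjamini-Hochberg adjustment over 12642 genes and a threshold of 0.05. Of the 47 members tested, 46 were higher in total lung than in macrophages (background 43.8% of all genes), 38 than in monocytes (31.7%), 41 than in neutrophils (71.6%) and 29 than in epithelial cells (33.8%). The members' median differences were 3.20, 1.73, 2.35 and 1.48 on the log2 scale, against 0.32, 0.23, 1.07 and 0.03 over all genes tested. These comparisons share the total lung libraries. No member was lower in total lung than in macrophages or monocytes (backgrounds 18.3% and 11.6%), and Col11a2 alone was lower than in neutrophils (13.2%). With quantile scaling the counts against neutrophils were 28 higher and 4 lower. Against epithelial cells 9 members were lower in total lung (background 32.9%): Col4a1 to Col4a5, Col7a1, Col8a2, Col12a1 and Col23a1. Col4a3, a chain of mature lung and kidney basement membranes, was at 8.69, 3.68 and 10.9 FPKM in WT epithelial cells and at 0.728, 1.32 and 1.71 in WT total lung. Every epithelial library was above every total lung library, a 6.19-fold difference in mean FPKM (limma adjusted p = 3.71e-07). Col4a4 was 6.17-fold and Col8a2 6.00-fold higher in epithelial cells. Col6a1, Sparc and Postn differed little between these groups, with adjusted p of 0.302, 0.646 and 0.435. Sparc, a collagen-binding matricellular protein, was at 248, 203 and 302 FPKM in WT epithelial cells and at 232, 286 and 165 in WT total lung.

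In total lung Inmt, Dcn, Fbln1 and Lum fell most in tumour-bearing mice, most fibrillar collagens did not pass, and Fbln2, Col18a1 and Col7a1 rose. Of the 46 members tested, 26 fell and 3 rose in limma's test, where 20.4% of the 11747 genes tested fell and 22.1% rose. The members' median change was -1.04 on the log2 scale against -0.01 over all genes tested. By role, 3 of 3 proteoglycans, 4 of 5 mesenchymal cell genes, 3 of 3 tested collagen VI chains, 4 of 6 collagen IV chains, 4 of 7 elastic fibre genes, 2 of 2 tested transmembrane collagens and 2 of 8 tested fibrillar collagens fell. Col4a3, Col4a4, Col4a6, Col8a2 and Col23a1 reached the level for testing only through WT libraries and could hardly have been called as rises. With a filter of 5 FPKM, 20 members fell and 2 rose, as did 1759 and 2221 of 8990 genes. In unsorted cells fewer cells of a type and less RNA per cell cannot be told apart.

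Inmt, an amine methyltransferase abundant in lung fibroblasts, was at 719, 542 and 331 FPKM in WT total lung and at 17.5, 23.1 and 17.1 in tumour total lung. The groups were far apart, and the tumour libraries were close to each other. The mean was 27.6-fold lower in tumour lungs (log2 change -4.66 ± 0.27 SE, limma adjusted p = 6.49e-05). Dcn, the proteoglycan decorin, was at 301, 450 and 154 FPKM in WT and at 24.2, 27.003 and 15.3 in tumour lungs. Even the lowest WT library, replicate 13, was above all tumour ones, and the mean was 13.6-fold lower in tumour lungs (log2 change -3.62 ± 0.38 SE, adjusted p = 0.000527). Lum, its neighbour on chromosome 10 and a fibril-binding proteoglycan too, was at 30.2, 34.0 and 10.6 FPKM in WT and at 3.20, 2.999 and 1.26 in tumour lungs (adjusted p = 0.00225). Bgn, the related biglycan, fell less, from 289 ± 115 to 95.1 ± 40.04 FPKM (SD, n = 3 each, adjusted p = 0.017). Its call was lost without WT replicate 11 (adjusted p = 0.0601) or 12 (0.0576).

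The other fibroblast genes fell with them. Pdgfra, a growth factor receptor of lung fibroblasts, was at 15.1, 17.2 and 9.33 FPKM in WT and at 1.66, 2.25 and 1.06 in tumour lungs (log2 change -2.47 ± 0.25 SE, limma adjusted p = 0.000448). Tcf21, a transcription factor of lipid-storing fibroblasts, was at 19.5, 10.6 and 8.14 FPKM in WT and at 1.44, 3.13 and 1.62 in tumour lungs (adjusted p = 0.00205). No tumour library reached the WT range for either gene. Pdgfrb, the receptor of pericytes and other mural cells, fell 2.24-fold, from 8.44 ± 1.88 to 3.77 ± 1.72 FPKM (SD, n = 3 each, adjusted p = 0.0248), a call lost without WT replicate 11 (0.083) or 12 (0.0768). Acta2, smooth muscle actin, was at 96.5, 48.2 and 44.2 FPKM in WT and at 45.1, 53.2 and 17.1 in tumour lungs. These ranges overlapped and the difference did not pass (adjusted p = 0.211).

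Fibrillar collagens varied widely within groups, and the share called lower, 2 of 8, was near the background. Col1a1, a chain of type I collagen, was at 157, 206 and 60.2 FPKM in WT and at 63.1, 78.5 and 18.5 in tumour lungs. The lowest WT library fell within the tumour range, and the 2.65-fold lower mean did not pass (log2 change -1.45 ± 0.61 SE, limma adjusted p = 0.0911). Its partner chain Col1a2 was at 175, 226 and 66.3 FPKM in WT and at 49.5, 58.9 and 17.6 in tumour lungs, without overlap (log2 change -1.86 ± 0.55 SE, adjusted p = 0.0296). Col3a1, the type III chain of stretchable tissue, was at 167, 202 and 71.6 FPKM in WT and at 65.8, 71.2 and 24.5 in tumour lungs. The nearest libraries of the groups differed by less than 1 FPKM, and the change passed narrowly (adjusted p = 0.0476). Tumour replicate 14 and WT replicate 13 were the lowest of their groups for all 3 genes. The Col1a2 call was lost without tumour replicate 14 (adjusted p = 0.0775) or WT replicate 11 (0.0925) or 12 (0.0932), and the Col3a1 call without tumour replicate 12 (0.0615) or 14 (0.121) or WT replicate 11 (0.134) or 12 (0.142). Col5a1, Col5a2, Col5a3, Col11a2 and Col27a1 did not pass.

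Among collagens that bind fibrils, 2 of 4 tested fell (median log2 change -0.60, against -0.77 for the fibrillar collagens). Col14a1, a fibril-associated collagen, was at 47.7, 63.6 and 20.2 FPKM in WT and at 7.74, 6.17 and 4.56 in tumour lungs (log2 change -2.53 ± 0.39 SE, limma adjusted p = 0.00211). The transmembrane collagens Col13a1 and Col23a1 fell 8.32-fold and 11.2-fold (adjusted p = 0.00265 and 0.000711). Col23a1 was at 6.43, 6.89 and 3.25 FPKM in WT and at 0.489, 0.583 and 0.407 in tumour lungs. Groups were far apart for these 3 genes. Col12a1 fell from 2.82 ± 0.23 to 1.69 ± 0.44 FPKM (SD, n = 3 each, adjusted p = 0.0324), a call that leaving out any of tumour replicates 13 and 14 (0.0599 and 0.0709) or WT replicates 11, 12 and 13 (0.115, 0.0794 and 0.0567) ended. Col16a1 and Col20a1 did not pass.

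Of the 6 basement membrane chains of collagen IV, 4 passed. The log2(FPKM + 1) changes of Col4a1 to Col4a4 were -0.62, -0.73, -0.71 and -0.69. The added 1 shrinks the changes of low genes, here Col4a3 and Col4a4, so these values do not show equal falls. In mean FPKM, given below, Col4a3 and Col4a4 fell more than Col4a1 and Col4a2. Differences between chains were not tested. Col4a1 and Col4a2, the chains of the widespread collagen IV trimer, were 1.49-fold and 1.61-fold lower in tumour total lung and did not pass (limma adjusted p = 0.0851 and 0.0549). Col4a1 was at 37.8, 51.0 and 48.2 FPKM in WT and at 25.8, 44.4 and 21.7 in tumour lungs, with overlap. Col4a3, Col4a4, Col4a5 and Col4a6, whose products form the more restricted trimers, fell 3.51-fold, 3.34-fold, 2.75-fold and 3.80-fold in mean FPKM. All 4 were at or below 6.24 FPKM on average in WT, and Col4a3 and Col4a4 were at 0.277 to 0.478 FPKM in tumour lungs. The Col4a3 call was lost without tumour replicate 12 (adjusted p = 0.0672) and the Col4a5 call without WT replicate 11 (0.0574) or 12 (0.0526). Collagen VI fell as a whole: Col6a1, Col6a2 and Col6a3 were 2.25-fold, 2.44-fold and 3.31-fold lower. Col6a1 and Col6a2 ranges overlapped, since WT replicate 13 was at 40.8 and 30.0 FPKM and tumour replicate 13 at 44.2 and 35.1. Their adjusted p of 0.0466 and 0.0491 rose to between 0.0806 and 0.147 without tumour replicate 12 or 14 or WT replicate 11 or 12, and that of Col6a3 (0.0184) to 0.0604 and 0.0625 without WT replicate 11 or 12.

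Elastic fibre genes went in opposite directions. Fbln1, a fibulin of elastic fibres and basement membranes, was at 69.5, 97.1 and 33.8 FPKM in WT and at 6.05, 5.30 and 4.67 in tumour lungs, a 12.5-fold fall in the mean (log2 change -3.30 ± 0.34 SE, limma adjusted p = 0.000485). Fbln5, needed for elastic fibre assembly, was at 6.65, 8.67 and 4.64 FPKM in WT and at 0.962, 1.21 and 0.558 in tumour lungs (adjusted p = 0.000673). Both were far below the WT range in every tumour library. Fbn1, the fibrillin scaffold, fell 2.73-fold and Loxl1, a crosslinking oxidase, 3.32-fold (adjusted p = 0.0106 and 0.00589). Eln, elastin itself, was at 39.0, 48.6 and 44.9 FPKM in WT and at 58.5, 104.7 and 20.8 in tumour lungs. The tumour libraries lay on both sides of the WT range, and no change was detectable (log2 change 0.20 ± 0.50 SE, adjusted p = 0.774).

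Fbln2, a fibulin found in vessel walls and remodelling tissue, rose, with 13.6, 18.0 and 6.59 FPKM in WT and 25.6, 32.6 and 23.1 in tumour lungs. All tumour libraries were above all WT ones (log2 change 1.12 ± 0.32 SE, limma adjusted p = 0.0245), and the call was lost without tumour replicate 12 (0.0565) or 13 (0.0725). Col18a1, the basement membrane collagen whose fragment is endostatin, was at 9.54, 8.87 and 4.87 FPKM in WT and at 22.5, 32.7 and 15.4 in tumour lungs (log2 change 1.47 ± 0.31 SE, adjusted p = 0.00739). Its groups did not overlap either. Col7a1, the anchoring fibril collagen, rose from 0.872 ± 0.240 to 1.92 ± 0.37 FPKM (SD, n = 3 each, adjusted p = 0.0197), a call lost without tumour replicate 13 (0.0532) or 14 (0.0526) or WT replicate 13 (0.0565). Mgp fell in mean from 2093 ± 781 to 788 ± 464 FPKM but did not pass (adjusted p = 0.0516), and Sparc fell 2.16-fold (adjusted p = 0.0113). Postn, periostin of activated fibroblasts, was at 7.56, 9.97 and 5.73 FPKM in WT and at 6.78, 14.2 and 7.55 in tumour lungs, with overlap (adjusted p = 0.544).

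Cell type markers moved in the same libraries. The fibroblast markers Dcn, Inmt, Tcf21 and Pdgfra are the members described above, so their fall (4 of 4) is not a separate readout. They summed to 503 to 1055 FPKM in WT and to 35.1 to 55.5 in tumour total lung. Endothelial markers were lower in 9 of 9, summing to 404 to 870 and 69.3 to 178 FPKM. Neutrophil markers were higher in 4 of 4 (sums of 1519 to 1796 and 3384 to 8335) and macrophage markers in 3 of 3 (30.2 to 38.8 and 115 to 267). Smooth muscle and pericyte markers, a list that holds the member Acta2, were lower in 2 of 8 tested (110 to 243 and 34.2 to 117). Mesothelial-list markers were higher in 2 of 2 tested, Msln and Krt19 (14.4 to 19.8 and 177 to 285). The part of these shifts in the matrix result was not tested.

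In epithelial cells Fbln2, Col18a1, Col27a1, Col6a2 and Col7a1 rose and Inmt, Col23a1, Dcn, Postn and Pdgfra fell. Most of the set did not pass. Of 43 members tested, 5 rose and 5 fell in limma's test, where 14.9% of 11823 genes rose and 8.89% fell, so the members' counts were near the background. The members' median change was -0.19 on the log2 scale against 0.01 over all genes tested. No collagen IV chain, 1 of 7 fibrillar collagens, 1 of 3 collagen VI chains and 1 of 7 elastic fibre genes rose, while 2 of 5 mesenchymal cell genes fell. Tcf21 and Pdgfrb were lower on average and did not pass (adjusted p of 0.0556 and 0.157).

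Fbln2 was at 1.45, 0.982 and 1.69 FPKM in WT and at 43.5, 17.9 and 67.4 in tumour epithelial cells. Every tumour library was more than 10 times above every WT one, and the mean was 31.2-fold higher (log2 change 4.04 ± 0.44 SE, limma adjusted p = 0.00396). Col18a1 was at 4.64, 2.02 and 10.7 FPKM in WT and at 53.9, 24.4 and 69.9 in tumour epithelial cells (log2 change 2.98 ± 0.55 SE, adjusted p = 0.0145), a call lost without tumour replicate 9 (0.0638) or WT replicate 8 (0.064). Col27a1, a fibrillar collagen best known from cartilage, was at 0.902, 0.919 and 0.869 FPKM in WT and at 9.51, 4.57 and 12.4 in tumour cells (adjusted p = 0.00752). For these 3 genes tumour replicate 10 was the lowest tumour library and still above the WT range. Col6a2 rose 2.33-fold and Col7a1 2.28-fold (adjusted p = 0.0312 and 0.0397). Their calls were lost without tumour replicate 9 (0.116 and 0.159) or 11 (0.061 and 0.105) or WT replicate 8 (0.0979 and 0.108) or 9 (0.0591 and 0.0828), and that of Col7a1 also without WT replicate 10 (0.0807).

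Inmt was at 141, 104 and 197 FPKM in WT epithelial cells and at 21.5, 17.3 and 1.51 in tumour ones (log2 change -3.83 ± 0.78 SE, limma adjusted p = 0.0198). Dcn was at 43.0, 24.8 and 48.5 FPKM in WT and at 13.2, 16.7 and 5.11 in tumour cells (adjusted p = 0.0301). Tumour replicate 11 was lowest for both genes, and no groups overlapped. The Inmt call was lost without WT replicate 8 (0.0746) or 10 (0.067), and the Dcn call without tumour replicate 9 (0.0831) or WT replicate 8 (0.104) or 10 (0.0922). Postn was at 7.43, 5.63 and 5.99 FPKM in WT and at 2.17, 1.42 and 1.66 in tumour cells (log2 change -1.42 ± 0.19 SE, adjusted p = 0.00696). Col23a1 was at 10.9, 10.0 and 11.4 FPKM in WT and at 1.04, 4.33 and 1.53 in tumour cells (adjusted p = 0.0132), lost without WT replicate 8 (0.0596) or 10 (0.0501). Pdgfra fell 3.78-fold (adjusted p = 0.046), a call lost without any of tumour replicates 9, 10 and 11 (0.0999, 0.0545 and 0.132) or WT replicates 8 and 10 (0.111 and 0.108).

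The abundant chains of epithelial cells showed no detectable change. Col6a1 was at 91.1, 71.3 and 119 FPKM in WT and at 146, 140 and 101 in tumour cells (limma adjusted p = 0.154). Col4a1 was at 85.7, 61.9 and 95.2 FPKM in WT and at 85.7, 82.0 and 52.2 in tumour cells (adjusted p = 0.654), and Col4a2 and Sparc had adjusted p of 0.137 and 0.135. Ranges overlapped for all 4. Acta2, Eln, Mgp, Bgn, Col1a1, Col1a2 and Col3a1 were highest among WT libraries in replicate 10, the one with the smooth muscle genes, and did not pass (adjusted p of 0.871, 0.944, 0.814, 0.207, 0.637, 0.573 and 0.565). Without WT replicate 10, 4 members rose and 1 fell, and calls over all genes dropped as well, to 755 higher and 180 lower of 11712 from 1765 and 1051. Endothelial markers were lower in 9 of 9 in the tumour cells, with sums of 177 to 337 FPKM in WT and 11.04 to 55.1 in tumour libraries, and Msln was at 128, 79.2 and 284 FPKM in tumour libraries and at most 2.66 in WT ones. Macrophage markers were higher in 2 of 3, with sums of 2.89 to 8.28 FPKM in WT and 14.4 to 75.3 in tumour libraries. Their part in the matrix result was not tested.

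**Figure D2:**
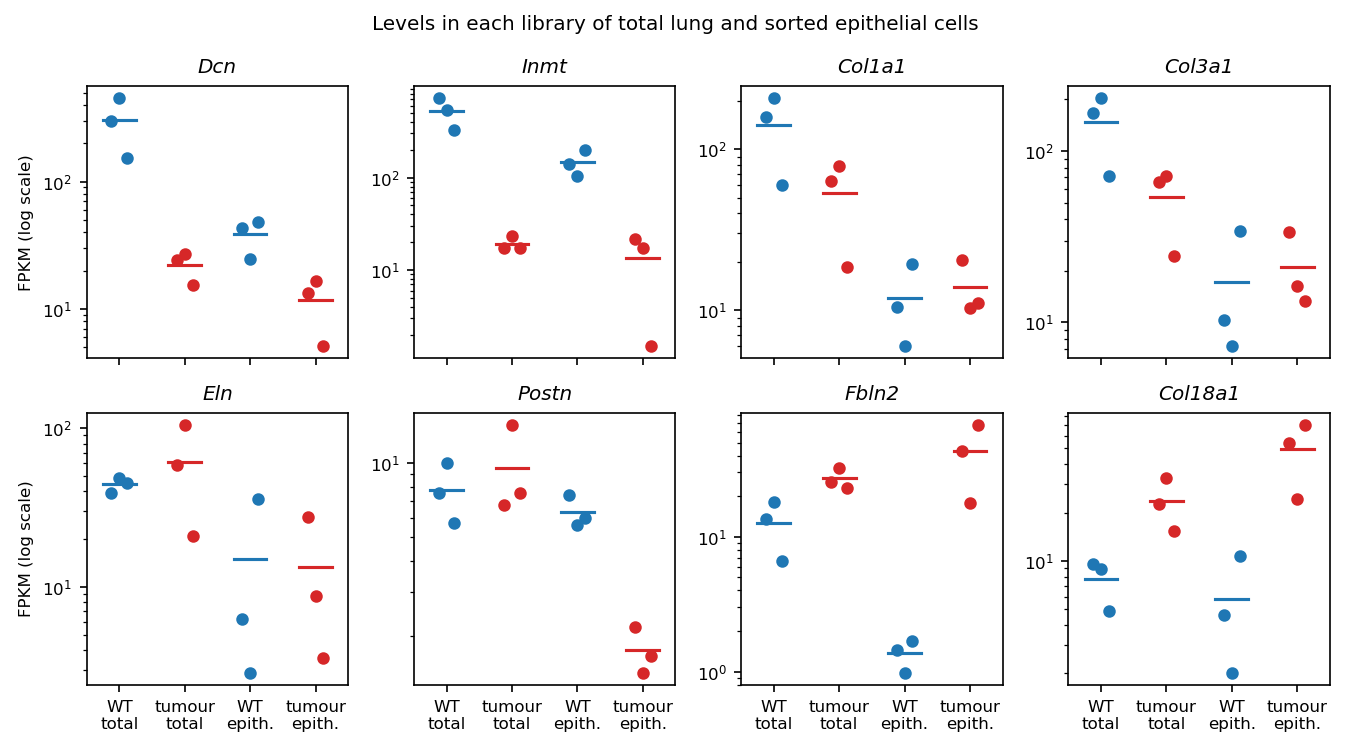
FPKM (log axis) of 8 members in each library of total lung and sorted epithelial cells, WT in blue and tumour in red; the short line is the group mean of 3 libraries. Dcn and Inmt are lower in both tumour preparations, Fbln2 and Col18a1 higher in both, Postn is lower in the tumour epithelial libraries, and the Col1a1 and Eln groups overlap.

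The tumour difference itself was then compared between total lung and epithelial cells, as the interaction in the limma fit of all groups. It was below 0 (a lower tumour change in total lung) for 13 of 47 members and above 0 for 1, against 10.6% and 7.36% of all genes tested. Fbln1 differed most: its log2 change was -3.30 in total lung and -0.0013 in epithelial cells, a difference of -3.30 ± 0.67 SE (adjusted p = 0.00196). In epithelial cells it was at 7.09, 2.68 and 10.8 FPKM in WT and at 7.23, 5.68 and 5.39 in tumour libraries, with overlap. Fbln2 rose in both preparations and by 2.92 log2 units more in epithelial cells (adjusted p = 0.000485). Fbln5 changed by -1.98 in total lung and by 0.63 in epithelial cells, where it did not pass (difference -2.61 ± 0.36 SE, adjusted p = 8.92e-05). Col27a1 (difference -2.48), Col6a2 (-2.45) and Bgn (-2.32) were the next. Postn was the exception above 0 (difference 1.64 ± 0.36 SE, adjusted p = 0.00337).

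For the fibroblast genes Inmt and Dcn the difference between preparations did not pass (-0.83 ± 1.24 SE and -1.88 ± 0.77 SE, limma adjusted p = 0.692 and 0.0919), nor did it for Col18a1 (-1.51 ± 0.57 SE, 0.0672), Col23a1 (-0.12 ± 0.36 SE, 0.864), Eln (0.10 ± 0.91 SE, 0.959), Col8a2 (0.06 ± 0.51 SE, 0.955), Col8a1 (0.47 ± 0.23 SE, 0.173) or Col20a1 (0.48 ± 0.41 SE, 0.44). These standard errors leave wide room for a difference in Inmt and Eln. The 7 calls Fbln1, Fbln2, Fbln5, Col27a1, Col6a2, Bgn and Postn held under all 19 alternatives tried. Col5a1, Col6a1, Lum, Lox, Col5a3 and Pdgfra each lost theirs without tumour total lung replicate 14, with adjusted p of 0.0535, 0.0676, 0.0598, 0.0745, 0.117 and 0.1. Without WT total lung replicate 11 or 12 the calls of Col6a1 (0.0539 and 0.0571), Lum (0.053 and 0.0551), Lox (0.06 and 0.0682) and Pdgfra (0.08 and 0.0915) were lost too, and without replicate 11 that of Col5a3 (0.114). Leaving out tumour epithelial replicate 9 or WT epithelial replicate 9 ended the calls of Col5a3 (0.103 and 0.0543), Lox (0.0702 and 0.0622) and Pdgfra (0.099 and 0.0913). WT epithelial replicate 8 did so for Col5a3 (0.0577), Lum (0.0549) and Pdgfra (0.0718), tumour total lung replicate 12 for Pdgfra (0.0554), and tumour epithelial replicate 11 and WT epithelial replicate 10 for Col5a3 (0.0929 and 0.0503).

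**Figure D3:**
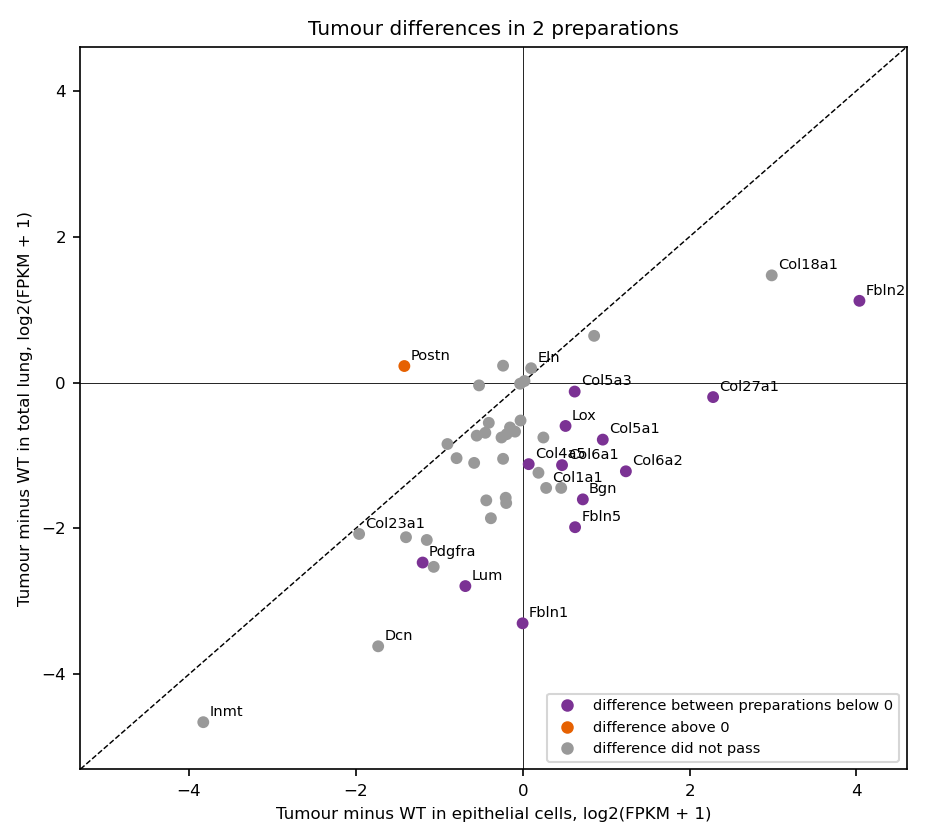
Each point is 1 of 47 members: its tumour minus WT difference on the log2(FPKM + 1) scale in epithelial cells (x axis) and in total lung (y axis), with the dashed line where both are equal; colours mark members whose 2 differences are unlike (adjusted p under 0.05). Most points lie below the line, Fbln1 drops straight down at 0 on the x axis, and Postn lies above the line.

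In sorted neutrophils the median over all members was 1.11 FPKM in WT and 0.373 with tumour. Mgp (100 to 263 FPKM) and Acta2 (33.3 to 75.4 FPKM) stood far above that median in WT neutrophils. Most members tested were lower with tumour, while Col15a1 rose. Of 32 members tested, 21 fell and 2 rose in limma's test, where 25.8% of 9349 genes fell and 33.3% rose. Col5a1, Col5a2, Col6a3, Col14a1, Col16a1, Fbln1, Fbln5, Fbn1, Lum and Pdgfrb reached the level for testing only through WT libraries. They could hardly have been called as rises, so the count of falls is limited by the filter. With a filter of 5 FPKM, 11 members fell and 1 rose, as did 1712 and 2129 of 5967 genes. The members' median change was -0.80 on the log2 scale against 0.11 over all genes tested. Col15a1, a collagen at the border of basement membrane and interstitium, was at 1.24, 0.567 and 1.38 FPKM in WT and at 10.6, 8.99 and 9.18 in tumour neutrophils. All tumour libraries stood far above WT ones and close together, an 8.997-fold difference in the mean (log2 change 2.38 ± 0.17 SE, adjusted p = 2.05e-05). In total lung, epithelial cells, monocytes and macrophages Col15a1 was not called (adjusted p of 0.179, 0.497, 0.984 and 0.0741), and the difference between preparations was not tested. Fbln2 was the other rise (2.47 against 1.64 FPKM, adjusted p = 0.0489), and 11 of its 13 alternatives lost it, among them leaving out tumour replicate 6 (0.188) or 8 (0.137) or WT replicate 5 (0.0645), 6 (0.0787) or 7 (0.111).

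The falls in neutrophils covered mesenchymal genes of several kinds. Dcn was at 12.1, 5.34 and 33.7 FPKM in WT and at 1.14, 1.02 and 1.69 in tumour neutrophils (log2 change -2.65 ± 0.50 SE, limma adjusted p = 0.00197). Acta2 was at 75.4, 55.7 and 33.3 FPKM in WT and at 19.5, 12.1 and 20.8 in tumour neutrophils (adjusted p = 0.00195). WT replicate 7 was the highest for Dcn but the lowest for Acta2, and neither gene's groups overlapped. Col1a1, Col1a2, Col3a1, Bgn, Sparc, Eln, Col4a1 and Col4a2 fell 2.95-fold, 3.61-fold, 3.37-fold, 2.52-fold, 2.32-fold, 1.93-fold, 2.14-fold and 1.52-fold, with adjusted p of 0.00299, 0.0112, 0.00382, 0.00738, 0.0122, 0.0051, 0.000599 and 0.0138. Pdgfrb fell 3.23-fold (0.00322) and Col11a2 1.84-fold (0.00346). Inmt was at 18.5, 15.5 and 77.6 FPKM in WT and at 3.28, 1.49 and 15.6 in tumour neutrophils. Its groups touched at 15.5 and 15.6 FPKM, and the call (adjusted p = 0.0205) was lost without tumour replicate 6 (0.0553) or 7 (0.0707) or WT replicate 7 (0.0627). Mgp, Col6a1 and Postn did not pass (0.131, 0.171 and 0.16), and Pdgfra was below the level for testing.

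Genes of other cells were lower in the same neutrophil libraries. Endothelial markers fell in 9 of 9 (sums of 72.4 to 92.7 FPKM in WT and 12.3 to 23.6 in tumour libraries), smooth muscle and pericyte markers in 7 of 7 tested (57.3 to 145 and 19.1 to 33.9) and epithelial markers in 5 of 7 (697 to 3226 and 28.4 to 75.4). The smooth muscle list holds the member Acta2. Fibroblast markers, all of them members of the set, summed to 21.6 to 116 FPKM in WT and to 2.77 to 18.5 in tumour neutrophils. Of the 4 neutrophil markers 1 was higher and 2 were lower with tumour. S100a8 was at 21820 to 24368 FPKM in WT and at 9547 to 11009 in tumour neutrophils, while S100a9 was listed at 0 in the WT ones, so no sum is compared. The part of the other cells' RNA in these matrix changes was not tested.

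Macrophages held the least matrix RNA of the 5 preparations. Of 22 members tested, 3 fell (Dcn, Col4a2 and Col20a1) and 1 rose (Col14a1) in limma's test, where 17.7% of 10119 genes fell and 20.3% rose. Dcn was at 4.01 and 13.1 FPKM in WT and at 1.27, 1.51 and 0.433 in tumour macrophages (adjusted p = 0.0121), a call lost without WT replicate 2 (0.0618). Col14a1 was at 0.351 and 1.76 FPKM in WT and at 6.76, 5.21 and 2.24 in tumour macrophages (log2 change 1.48 ± 0.44 SE, adjusted p = 0.0364). The groups did not overlap, but the call was lost without tumour replicate 1 (0.0892) or 2 (0.0833) or WT replicate 1 (0.225). Without WT replicate 1 or 2 the Col20a1 call was lost (0.0563 and 0.2), and leaving out any of the 5 libraries ended the Col4a2 call (0.0548 to 0.308). Inmt was at 27.9 and 24.5 FPKM in WT and at 10.1, 20.7 and 1.12 in tumour macrophages and did not pass (0.154). Mgp, Col1a1, Col1a2, Col3a1, Col4a1, Col6a1, Eln, Sparc, Bgn, Acta2 and Postn did not pass, and Pdgfra and Pdgfrb were below the level for testing. Endothelial markers were lower in 8 of 9 (59.2 to 65.0 and 6.11 to 11.2 FPKM) and epithelial markers in 5 of 7 (1179 to 1291 and 110 to 740), and their part was not tested.

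In monocytes, with 2 libraries a group, none of 37 members passed limma's test, nor did any of the 10366 genes (0%), and the lowest adjusted p of all was 0.0911. Without adjustment, 2 members were higher and 9 lower at p under 0.05, as were 744 and 815 of all genes. Inmt was at 84.5 and 86.1 FPKM in WT and at 4.19 and 34.7 in tumour monocytes (adjusted p = 0.25). Col4a1 was at 39.8 and 34.6 FPKM in WT and at 18.0 and 23.7 in tumour monocytes (adjusted p = 0.2). Col18a1 was at 1.93 and 0.735 FPKM in WT and at 3.79 and 4.17 in tumour monocytes (adjusted p = 0.225). Dcn was at 52.8 and 41.1 FPKM in WT and at 16.5 and 49.1 in tumour monocytes. Col1a1 was at 15.0 and 21.9 in WT and at 13.97 and 25.4 in tumour monocytes. With 2 libraries a group, a gap or an overlap between groups was not read as a result. Tumour replicate 4 was the lower tumour library for Inmt, Dcn, Bgn, Mgp and the type I and III chains. Endothelial markers summed to 598.5 to 932 FPKM in WT and 100.5 to 272 in tumour monocytes, with 0 of 9 called. Fibroblast markers, all of them members of the set, summed to 133 to 144 and 21.2 to 86.8, with 0 of 4 called.

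Ratios between members within a library show which of them changed unequally. Col1a1 was at 0.390 to 0.522 of the Dcn level in WT total lung and at 1.21 to 2.91 in tumour total lung. In epithelial cells the ratio was 0.243 to 0.403 in WT and 0.624 to 2.17 in tumour libraries. Both preparations had every tumour library above every WT one, as had macrophages (0.174 to 0.345 and 1.18 to 2.14, in the libraries where both genes reached 1 FPKM). In neutrophils the ranges overlapped, 0.397 to 1.47 and 1.38 to 3.55, and in monocytes as well, 0.284 to 0.533 and 0.517 to 0.849. The ratio was chosen after the values were seen and was not tested. Fbln2 was at 0.185 to 0.196 of the Fbln1 level in WT total lung and at 4.24 to 6.16 in tumour total lung, so the order of these 2 fibulins turned over.

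**Figure D4:**
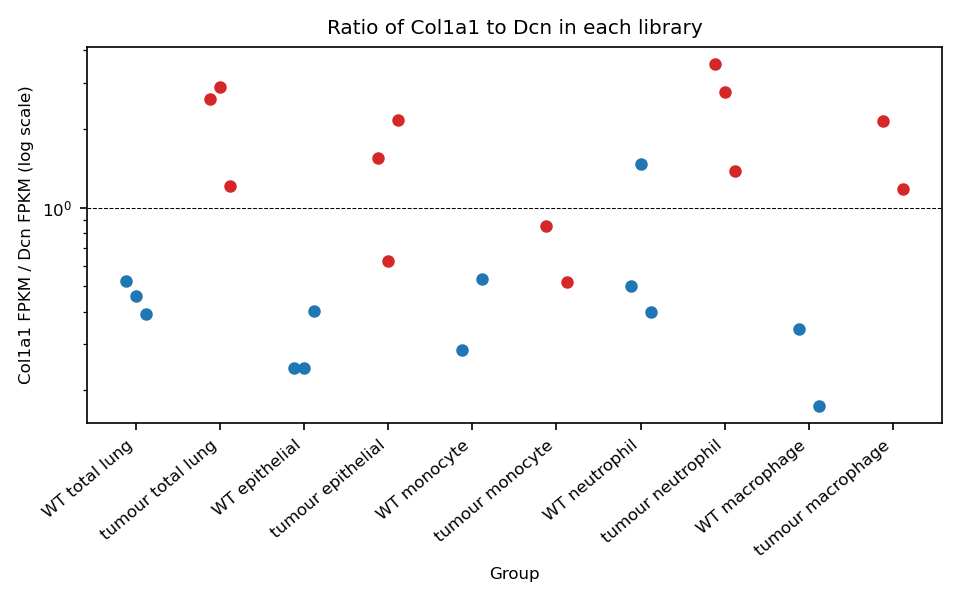
Col1a1 FPKM divided by Dcn FPKM in each library (log axis; WT blue, tumour red; dashed line at 1) for libraries in which both genes reached 1 FPKM, by group. All WT total lung points lie between 0.390 and 0.522 and all tumour total lung points between 1.21 and 2.91.

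Partner chains of 1 trimer kept closer ratios. Type I collagen is built from Col1a1 and Col1a2 chains, and the Col1a1 level was 0.606 to 1.68 times that of Col1a2 over 26 libraries. It was 0.898 to 0.913 in WT total lung and 1.05 to 1.33 in tumour total lung. Col4a1 was at 0.865 to 2.99 times Col4a2 over 27 libraries, with a median of 1.45. The collagen VI chains were the exception: Col6a1 was at 1.17 to 1.36 times Col6a2 in WT total lung but at 3.80 to 5.36 times in WT epithelial cells and at 2.24 to 3.19 times in tumour epithelial cells. Col6a3, the long chain that completes the usual collagen VI trimer, was at 1.28, 0.819 and 7.10 FPKM in WT epithelial cells, far below Col6a1 at 91.1, 71.3 and 119.

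A companion list held 26 measured genes for hydroxylation, folding, propeptide removal and crosslinking. In total lung 3 of 23 tested rose and 7 fell (all genes 22.1% and 20.4%), with a median log2 change of -0.12. The falls included Pcolce2, an enhancer of procollagen cleavage, from 56.5 to 3.71 FPKM (limma adjusted p = 0.000204), and the procollagen peptidases Adamts2, from 18.9 to 3.07 (0.00387), and Adamts14, from 14.7 to 4.84 (0.000446). In epithelial cells 7 of 22 rose and 1 fell (all genes 14.9% and 8.89%). Pcolce, the related enhancer, rose there from 16.7 to 81.3 FPKM (0.00437), and Pcolce2 fell from 13.2 to 3.75 (0.0372), a call lost without any of tumour replicates 9, 10 and 11 or WT replicates 8 and 10 (0.0603 to 0.122). Crtap, a prolyl hydroxylation cofactor, rose from 10.4 to 24.4 (0.0154), lost without tumour replicate 9 (0.0746) or WT replicate 8 (0.0677). In neutrophils, where 33.3% of all genes rose and 25.8% fell, 2 of 14 rose, P4ha1 the most (7.32 to 17.8, 0.00307), and 6 fell, Pcolce2 the most (5.12 to 0.712, 0.00304). In macrophages, where 20.3% of all genes rose and 17.7% fell, 5 of 16 rose, among them Crtap (7.45 to 13.95 FPKM, 0.00442), and 2 fell, and in monocytes 0 of 21 passed.

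The second list held 31 other matrix glycoproteins and proteoglycans. In total lung 17 of 30 tested fell and 3 rose (all genes 20.4% and 22.1%), with a median log2 change of -0.93. Ogn, Tnxb and Ltbp4, a proteoglycan, a tenascin and a binder of latent TGF-beta, fell from 49.9 to 4.02, from 43.1 to 3.27 and from 111 to 9.92 FPKM (limma adjusted p = 0.00038, 0.000376 and 0.000446). In epithelial cells 10 of 28 rose and 4 fell (all genes 14.9% and 8.89%), led by Fn1, fibronectin, from 12.3 to 207 FPKM (0.00463). Smoc2 fell from 17.0 to 2.75 (0.0113, and 0.0508 without WT replicate 8) and Ogn from 15.7 to 2.44 (0.0258), lost without tumour replicate 11 (0.0596) or WT replicate 8 (0.086) or 10 (0.0741). In neutrophils 14 of 22 fell (all genes 25.8%), among them Ltbp4 (11.8 to 0.940, 1.48e-05) and Sparcl1 (17.9 to 3.47, 0.000103), and 1 rose. In macrophages 5 of 14 rose and 6 fell (all genes 20.3% and 17.7%): Ltbp3 rose from 0.927 to 19.0 FPKM (2.26e-05) and Fn1 from 153 to 409 (0.00153). In monocytes 0 of 26 passed.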

How the data were processed

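RNA-seq of 27 mouse libraries was deposited by the authors as 1 table of FPKM values for 16024 genes. Per the submitters' processing notes, CASAVA 1.8.2, TopHat2, Cufflinks and Cuffdiff were used with build mm10 (GRCm38), and the settings are not given in the sources used here. Library kits and sorting are per the labels' protocols. Values were used as log2(FPKM + 1). Such fold changes understate changes of low genes, so fold differences in the text are ratios of mean FPKM. Tumour and WT libraries of each preparation were compared in limma 3.58.1 (R 4.3.3) with an intensity trend, empirical Bayes and Benjamini-Hochberg adjustment over all genes that reached 1 FPKM in 2 or more of the compared libraries, and adjusted p under 0.05 was called. In a comparison of 2 groups, a gene that passed this filter through only 1 of them could hardly be called higher in the other. WT preparations and the interaction were contrasts in 1 fit of all 10 groups. Scripts were tested on simulated data. Genes named were those with the largest passing changes without overlap and at least 5 FPKM (up to 8 each way), a fixed list of 16 members, the 5 highest of each group, the 5 largest interaction differences each way and the 3 largest companion changes. The members and lists were chosen with earlier results of these data known. Alternatives varied the pseudocount (0.1 or 5), the filter (none, or 5 FPKM), scaling (quantile, upper quartile), the samples fitted, a replicate block and leaving out each library. Promoters are from RefSeq and positions from GENCODE. Python 3 scripts drew the figures. Since the depth in reads is not recorded, no counting intervals are given.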

Additional observations from a re-analysis of the deposited data

Results flagged for a closer look

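The tumour difference of 14 of the 47 members tested was unlike in total lung and in sorted epithelial cells by limma's interaction test with Benjamini-Hochberg adjustment over 12642 genes. It was below 0 for 13 and above 0 for 1, against 10.6% and 7.36% of all genes. Of the 14 calls, 7 were lost in at least 1 alternative, that of Col4a5 with a pseudocount of 0.1 (limma adjusted p = 0.0821) or only the groups compared (0.0551). Values are the log2 difference of the 2 tumour changes, total lung minus epithelial. Among elastic fibre genes it was -3.30 for Fbln1, -2.92 for Fbln2, -2.61 for Fbln5 and -1.11 for Lox. Fbln2 rose in both preparations, and the other 3 were not called in epithelial cells. Among collagens it was -2.48 for Col27a1, -2.45 for Col6a2, -1.74 for Col5a1, -1.60 for Col6a1, -1.19 for Col4a5 and -0.75 for Col5a3. Col27a1 rose in epithelial cells and was not called in total lung, and Col6a2 rose in epithelial cells and fell in total lung. The proteoglycans Bgn and Lum gave -2.32 and -2.10 and the fibroblast receptor Pdgfra -1.27. Postn was the single member above 0, at 1.64, having fallen in epithelial cells and not been called in total lung.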

How the results depend on the processing

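Of 2101 values of named genes under an alternative, 1817 kept their direction and side of the threshold, 237 lost the call, 18 gained one and 29 changed sign. All 29 sign changes concerned members that had not passed. The cause was not tested for any change below. Filters: without a filter the members called in macrophages went from 3 lower to 0, in epithelial cells from 5 higher to 3 and 5 lower to 1, and in neutrophils from 2 higher to 1. Over all 16024 genes that setting called 1467 lower in macrophages (from 1788) and 3039 higher in neutrophils (from 3115). In epithelial cells it called 955 higher and 359 lower (from 1765 and 1051). At 5 FPKM, where fewer genes are tested, macrophages had 0 lower and neutrophils 1 higher and 11 lower (from 21). Over all genes 1381 of 7720 were lower in macrophages, and 2129 higher and 1712 lower of 5967 in neutrophils. Neutrophil rises were also 1 with a pseudocount of 0.1, quantile or upper-quartile scaling and the fit of all 10 groups, where 2791 to 3085 of all genes rose. The fit of all 10 groups called 1 member lower in monocytes and 10 lower in epithelial cells. Of its 12642 genes it called 575 lower in monocytes (from 0) and 2400 in epithelial cells (from 1051). Of the WT contrasts, 1 member was lower in total lung than in macrophages with a pseudocount of 5, quantile or upper-quartile scaling or the fit of only the groups compared, 1 than in monocytes with quantile scaling, and 4 (quantile) or 3 (upper quartile) than in neutrophils. Interaction differences below 0 numbered 8 and 21 with pseudocounts of 0.1 and 5 and 6 with only the groups compared. Over all genes they numbered 934, 1642 and 725 (from 1346). Under quantile scaling the change of Pdgfrb in monocytes was 0.019.

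Scaling shifted the median of all genes by more than 0.1 in some comparisons. Upper-quartile scaling took it from 0.01 to 0.13 in epithelial cells (2459 higher and 668 lower, against 1765 and 1051) and from -0.05 to -0.20 in the interaction (568 and 2144, against 930 and 1346). In macrophages it gave 1701 higher and 2228 lower genes, against 2050 and 1788. In the WT contrasts quantile scaling took the median from 0.32 to -0.03 (macrophages; 3385 and 3837, against 5538 and 2316), from 0.23 to -0.00088 (monocytes; 2108 and 2210, against 4006 and 1462) and from 1.07 to 0.12 (neutrophils; 4521 and 3556, against 9054 and 1664). With upper-quartile scaling the neutrophil median was 0.54 (6900 and 2978).

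Whether the replicate numbers pair the libraries is not in the labels. Deviations correlated at -0.17 to 0.08 for same-numbered libraries and at -0.205 to 0.178 for libraries with different numbers. In groups this small the deviations of a group's libraries depend on each other, so these correlations cannot decide whether the numbers are pairs. With the replicate block the members called were 1 higher and 11 lower in total lung and 1 higher and 1 lower in epithelial cells. In neutrophils they were 1 higher and 19 lower and in macrophages 1 higher and 2 lower. Each was fitted on only the libraries that share a number. Calls over all genes dropped too, to 1285 higher and 1138 lower in total lung (from 2599 and 2394), 307 and 90 in epithelial cells (from 1765 and 1051) and 1904 and 1660 in neutrophils (from 3115 and 2409). In macrophages calls over all genes went up to 2326 and 1982 (from 2050 and 1788). Signs changed with the replicate block for Col1a1 (0.21) and Mgp (0.048) in macrophages, Col4a1 (0.12) in epithelial cells and Acta2 (0.084) in total lung. No paired analysis was possible in monocytes because their groups share only 1 number.

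Leaving out each library gave 1 to 4 higher and 14 to 28 lower members in total lung (14 without WT replicate 12, 16 without WT replicate 11), 2 to 7 and 1 to 6 in epithelial cells (1 lower without WT replicate 8 or 10), 1 to 2 and 17 to 22 in neutrophils, 0 to 2 and 0 to 3 in macrophages, 0 and 0 to 2 in monocytes (2 without tumour replicate 5) and 1 to 2 and 7 to 21 in the interaction (7 without tumour total lung replicate 14, 21 without WT epithelial replicate 10). WT total lung against neutrophils had 1 to 2 lower. Calls over all genes ranged from 1901 to 2540 higher and 1630 to 2179 lower in total lung and from 386 to 2420 and 104 to 1795 in epithelial cells. They ranged from 2542 to 2988 and 2096 to 2296 in neutrophils and from 1105 to 2390 and 673 to 2130 in macrophages. In monocytes they reached 161 and 149 without tumour replicate 5. In the interaction they ranged from 665 to 1267 and 927 to 1916, with 944 lower without tumour total lung replicate 14 and 1332 without WT epithelial replicate 10. The log2 changes that took both signs ranged, in macrophages, from -0.39 to 0.21 (Col1a1), -0.35 to 0.076 (Col4a1), -0.58 to 0.048 (Mgp) and -0.295 to 0.031 (Sparc). In monocytes they ranged from -0.36 to 0.46 (Col1a1), -1.12 to 0.075 (Col1a2), -0.73 to 0.17 (Col3a1), -1.45 to 0.073 (Dcn) and -0.18 to 0.058 (Pdgfrb). In epithelial cells they ranged from -1.07 to 1.09 (Acta2), -0.095 to 0.68 (Col1a1), -0.83 to 0.12 (Col1a2), -0.33 to 0.072 (Col4a1), -0.60 to 1.03 (Eln) and -0.61 to 0.43 (Mgp), and in total lung from -0.32 to 0.82 (Eln) and -0.074 to 0.41 (Postn). With 2 or 3 libraries a group, depth not recorded in reads and levels near 1 FPKM for many chains, small changes were not detectable.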
